A study of Caenorhabditis elegans with 4 samples.

Results

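The microRNA genes of Caenorhabditis elegans were set against the regions recovered in a chromatin immunoprecipitation with sequencing (ChIP-seq) of the tagged protein K09A11.1. They are the 261 genes of biotype miRNA among the 46926 genes of the Ensembl annotation of WBcel235, the assembly that the peak lists call ce11. Each gene was given a window from 1000 bp upstream of the 5′ end of its annotated precursor to 200 bp past the 3′ end. A region was counted for a gene when its summit, the position of its maximum, lay in that window, and the region of highest signal in each list stood for the gene, so that a replicate's value can come from another site than the pooled one. Which genes belong was set by annotation alone, without use of the signal. The set itself was chosen with earlier results of these data known.

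A microRNA is a short RNA that is cut from a hairpin precursor and guides an Argonaute protein to messenger RNAs with matching sites. The match lies mainly in the seed, bases 2 to 8 of the mature RNA, so microRNAs with the same seed form families with overlapping targets. In the worm the first microRNAs known, lin-4 and let-7, time larval development, while the mir-35 and mir-51 families are needed in the embryo.

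The libraries were made from whole late embryos of hermaphrodites of strain OP372, genotype unc-119(tm4063) III; wgIs372, in which a stable transgene expresses K09A11.1 with GFP and FLAG at its C terminus. Chromatin was sonicated and precipitated with an antibody to GFP. All 4 libraries form 1 group, of 2 biological replicates with 2 technical libraries each, so there is no comparison between conditions. Whole embryos mix all tissues, and no RNA was measured, so neither the cells behind a region nor the expression of a microRNA can be read from these lists. The authors ranked 30000 regions in a list for each replicate and 30000 in a pooled list, and kept 689 peaks in a thresholded list (663 nuclear, 26 mitochondrial). These 689 headed the pooled list, with signals from 30.4 to 452. Signal is the authors' own value for each region, and here it only orders and describes the regions of a list. The replicate lists had median signals of 7.30 in replicate 1 and 4.24 in replicate 2, were called against the same control, and their values stand side by side unscaled. The lists hold no read counts, so depth is unknown.

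The highest pooled signals at microRNA genes were at mir-51 and mir-52 of the mir-51 family, whose 6 members share the seed ACCCGUA. Their mature sequences, read from the RefSeq copy of WBcel235 at the positions of the Ensembl annotation, are shown because this family held 3 of the 9 microRNA genes with a thresholded peak. Capitals mark the seed.
mir-51: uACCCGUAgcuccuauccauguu
mir-52: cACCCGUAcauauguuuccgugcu
mir-53: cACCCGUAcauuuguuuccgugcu
mir-54: uACCCGUAaucuucauaauccgag
mir-55: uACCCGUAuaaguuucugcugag
mir-56: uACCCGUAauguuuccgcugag

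The genomic DNA at the 3 thresholded members is given on the strand of the gene, with the DNA of the mature microRNA in capitals. The mir-51 stretch is the summit window, which reaches 50 bp to either side of the summit (chrIV:11026017-11026117, minus strand). The mir-52 stretch (chrIV:14033921-14034057, plus strand) and the mir-53 stretch (chrIV:11027643-11027874, minus strand) run from upstream of the summit to just past the mature RNA. None of them overlaps an exon of a protein-coding gene.
mir-51: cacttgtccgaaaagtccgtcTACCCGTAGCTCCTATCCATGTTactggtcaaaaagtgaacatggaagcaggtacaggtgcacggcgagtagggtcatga
mir-52: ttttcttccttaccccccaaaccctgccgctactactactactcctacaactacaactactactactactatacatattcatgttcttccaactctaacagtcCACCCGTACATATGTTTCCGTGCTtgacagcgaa
mir-53: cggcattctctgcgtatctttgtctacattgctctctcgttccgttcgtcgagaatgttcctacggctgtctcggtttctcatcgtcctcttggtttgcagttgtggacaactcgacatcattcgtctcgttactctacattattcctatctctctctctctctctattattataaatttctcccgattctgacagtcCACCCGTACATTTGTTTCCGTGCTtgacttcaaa

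Over all 261 microRNA genes, 9 had a thresholded summit in the window, or 3.45% (exact Clopper-Pearson 95% interval 1.59 to 6.45). Among the 46665 other genes the share was 2.72%, inside that interval, so the count says nothing particular about microRNA genes. Protein-coding genes stood at 3.53%, tRNA genes at 26% and snoRNA genes at 16.2%. The intervals of tRNA and snoRNA genes, whose products work in translation and in RNA modification, did not overlap that of the microRNA genes. A window over the whole gene favours long genes, and the median microRNA precursor is 95 bp. With a window of fixed size, from 1000 bp upstream to 200 bp downstream of the 5′ end, the share was again 3.45% of microRNA genes, against 2.16% of other genes and 2.37% of protein-coding genes. Within 200 bp of the precursor itself, 4 microRNA genes (1.53%) had a thresholded summit, against 1.88% of other genes. These intervals cover counting error only and treat genes as independent, although neighbouring genes can share a peak.

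**Figure D1:**
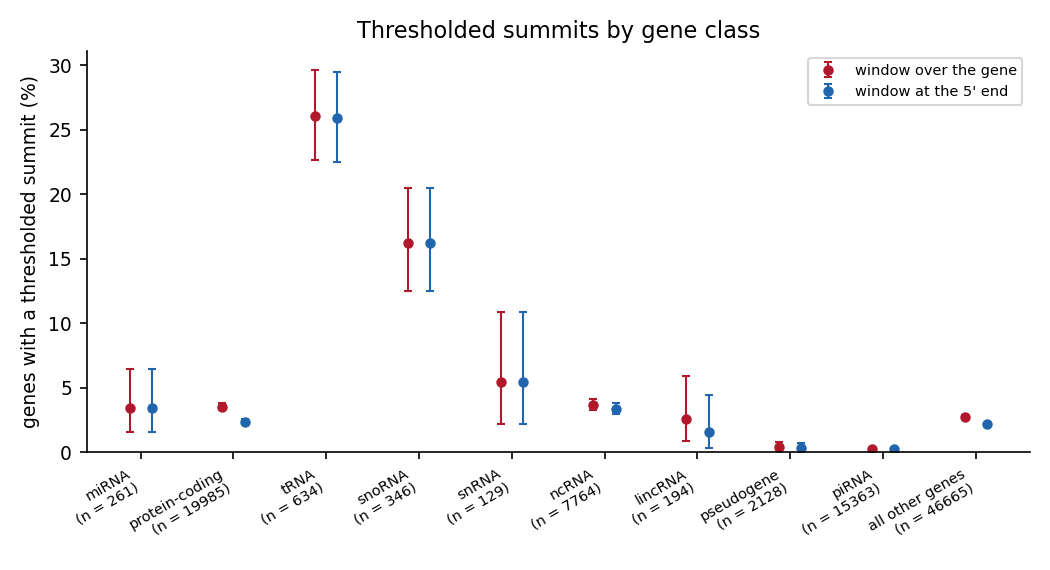
Share of genes with a thresholded summit (percent) by Ensembl gene class, in the window over the gene (red) and in the window of fixed size at the 5′ end (blue). Points are shares and bars are exact 95% intervals. The microRNA genes, at 3.45%, lie close to the protein-coding genes and far below the tRNA genes at 26%.

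The wider pooled list reached 127 of the 261 microRNA genes, or 48.7%, against 48.5% of other genes, which lies inside the interval of 42.5 to 54.9%. This too depended on the window. With the window of fixed size the pooled list reached 46.7% of microRNA genes (40.6 to 53), against 36.8% of other genes and 38.7% of protein-coding genes, both below the interval. That interval treats genes of a cluster as independent, and no test was made. The median signal of the regions at those 127 genes was 12.9, against 10.8 at the other genes that had one. The quartiles of the 127 values were 9.11 and 17.8, and the whole range ran from 7.08 to 117. The 127 genes drew on 108 distinct regions, because 31 genes in clusters shared 12 regions. A further 134 microRNA genes had no region in the pooled list.

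Of the 9 thresholded genes, mir-51 ranked highest. Its precursor (WBGene00003279, chrIV:11026013-11026112, minus strand) lies between protein-coding genes and in none of them. The peak there had a pooled signal of 117, rank 40 of the 30000, with its summit inside the precursor, 45 bp past the 5′ end and within the stretch printed above. The replicate 1 list gave 87.7 with a summit 3 bp from the pooled one. The replicate 2 list gave 30.2 with a summit 141 bp away, 96 bp upstream of the precursor. A second thresholded peak of signal 59.6, rank 206, had its summit 155 bp upstream of mir-51, so the replicate 2 summit fell between the pooled ones. Both replicates thus held a region over mir-51 but placed its summit differently.

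The gene mir-53 (chrIV:11027593-11027691, minus strand) lies upstream of mir-51, with 5′ ends 1579 bp apart, and had a peak of its own. Its pooled signal was 40.5, rank 431, with the summit 133 bp upstream of the precursor. Replicate 1 gave 34.0 at a summit 1 bp away, whereas the replicate 2 list had no region in the window and its nearest summit was 1049 bp off. The mir-53 peak therefore rested on replicate 1.

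The gene mir-52 (chrIV:14034008-14034107, plus strand) lies elsewhere on chromosome IV. It had a pooled signal of 84.6, rank 95, at a summit 37 bp upstream of the precursor. The unscaled replicate signals were close there, with 44.3 in replicate 1 (rank 171) and 45.3 in replicate 2 (rank 32). Their summits were 5 and 23 bp from the pooled one. In the replicate 2 list mir-52 was the microRNA gene of highest signal. A second thresholded peak of signal 51.7, rank 280, lay 924 bp upstream, with 22.8 in replicate 1 and 37.4 in replicate 2. Of the thresholded members of the family, mir-52 was the one with like unscaled signals in both lists, though its ranks differed.

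**Figure D2:**
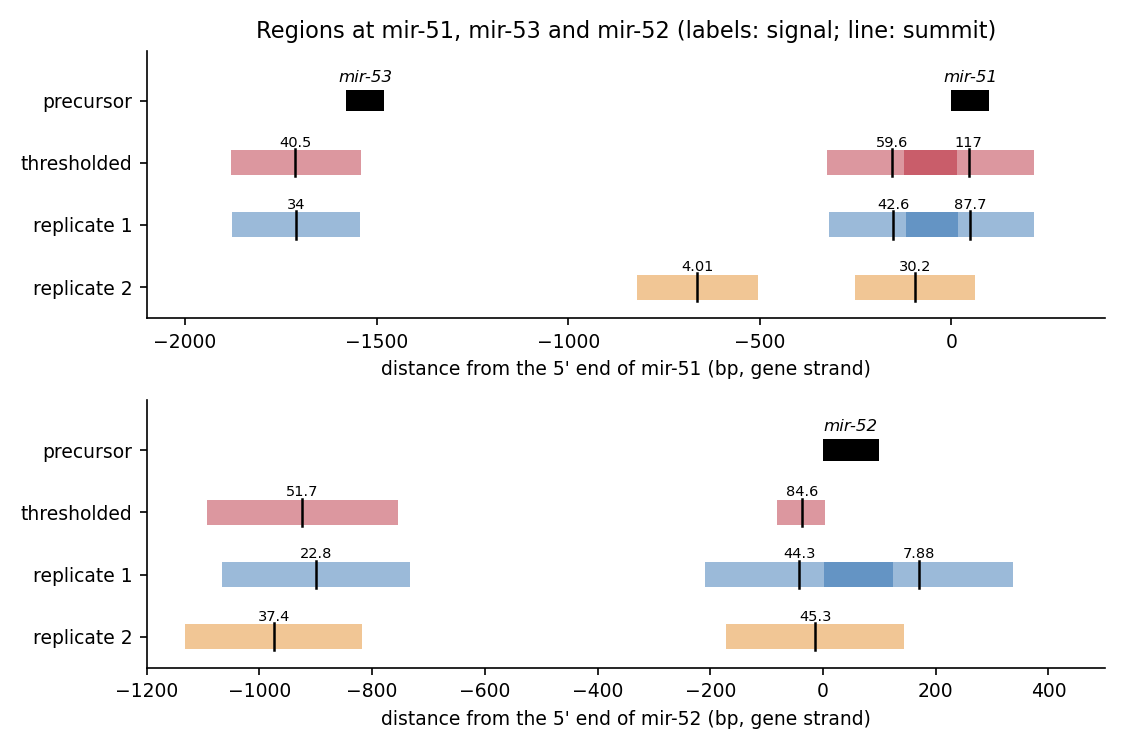
Regions at mir-53 and mir-51 (top) and at mir-52 (bottom), by distance in bp from the 5′ end of mir-51 or mir-52 on the gene's strand. Bars are regions of the thresholded, replicate 1 and replicate 2 lists, lines are summits and labels are signals. The replicate 2 region at mir-51, at 30.2, lies between the 2 thresholded summits, and mir-53 has no replicate 2 region.

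The other 3 members, mir-54, mir-55 and mir-56, form a cluster of 404 bp on the X chromosome. They shared 1 region with a pooled signal of 22.8, rank 1170, below the thresholded list. Replicate 2 gave 16.3 at a summit 31 bp from the pooled one. An overlapping replicate 1 region gave 13.6, with its summit 199 bp from the pooled one. Every member of the family thus had a pooled region, over 4 distinct best regions, and 3 of the 6 were thresholded. The mir-51 family was picked out for its values, so this count carries no test.

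Of the remaining thresholded genes, mir-58a, mir-71 and mir-62 stood in 1 family list each, and mir-5549, mir-251 and mir-354 in none. The mir-58a gene belongs to the family related to bantam of Drosophila, which is abundant in the worm, and lies in an intron of Y67D8A.2 on the same strand. Its annotated seed GAGAUCG shares 6 of 7 bases with the seed GAGAUCA of mir-80, another member. The mature sequences are shown for that comparison, with seeds in capitals.
mir-58a: uGAGAUCGuucaguacggcaau
mir-80: uGAGAUCAuuaguugaaagccga

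The peak of mir-58a had a pooled signal of 44.6, rank 366, with the summit 265 bp upstream of the precursor (chrIV:3233254-3233350, plus strand). Replicate 1 gave 27.5 and replicate 2 gave 14.3 at the same site, 26 and 35 bp from the pooled summit. The summit window (chrIV:3232939-3233039, plus strand) is shown because 74.3% of its bases are C or T on the gene's strand, the highest share of the 9.
mir-58a: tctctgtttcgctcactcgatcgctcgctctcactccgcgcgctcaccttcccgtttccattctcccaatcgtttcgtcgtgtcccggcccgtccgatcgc

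For mir-5549 the pooled signal was 54.5, rank 248, with 27.3 in replicate 1 and 27.0 in replicate 2. The summit lay inside the precursor (chrIII:6971976-6972085, minus strand), 33 bp past its 5′ end, as at mir-51. This gene sits between eef-1A.1, which encodes a translation elongation factor, and rfc-4, which encodes a subunit of the clamp loader of DNA replication. The summit was within the promoter windows of both, so the peak cannot be given to mir-5549 alone. The summit window (chrIII:6972002-6972102, minus strand) is shown with the annotated mature arms in capitals.
mir-5549: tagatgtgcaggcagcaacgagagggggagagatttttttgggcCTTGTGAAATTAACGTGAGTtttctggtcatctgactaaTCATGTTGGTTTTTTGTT

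At mir-251 the replicates differed widely. The pooled signal was 52.2, rank 273, and replicate 1 gave 51.1 at the same summit, 823 bp upstream of the precursor (chrX:11004728-11004824, plus strand). Replicate 2 had only a region of signal 4.14, rank 15729, with its summit 148 bp from the pooled one. In the summit window (chrX:11003855-11003955, plus strand) 22.9% of 32-base words recur elsewhere in the genome, the only such case among the 9. The recurring stretches are in capitals. Whether reads from the other copies contributed was not tested.
mir-251: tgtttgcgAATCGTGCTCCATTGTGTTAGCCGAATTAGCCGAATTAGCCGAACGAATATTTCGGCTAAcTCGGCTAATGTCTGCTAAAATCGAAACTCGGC

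The last 3 had the lowest thresholded signals and higher unscaled signals in replicate 1 than in replicate 2. By rank, mir-71 stood higher in replicate 2, at 1042 against 1728, and the other 2 in replicate 1. The precursor of mir-354 overlaps an exon of rps-20, which encodes a protein of the small ribosomal subunit, on chromosome I. Its peak had 36.7, rank 505, with 23.4 in replicate 1 and 12.4 in replicate 2. The summit lay 820 bp upstream, within the promoter windows of rps-20 and ekl-4. The gene mir-71, known for roles in stress resistance and lifespan, lies in an intron of ppfr-1 on chromosome I. It had 31.2, rank 671, with 14.2 in replicate 1 and 10.9 in replicate 2, at a summit 342 bp upstream and in the same host gene. The gene mir-62 is a mirtron, a precursor made by splicing, from an intron of ugt-50 on the X chromosome. Its summit, 428 bp upstream, lay in the promoter window of ugt-50. At a pooled signal of 30.5, rank 686, mir-62 was just inside the list, whose lowest signal was 30.4, with 18.3 in replicate 1 and 11.2 in replicate 2. Just outside were mir-86 and mir-8211, which share a region of 27.6, rank 800.

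**Figure D3:**
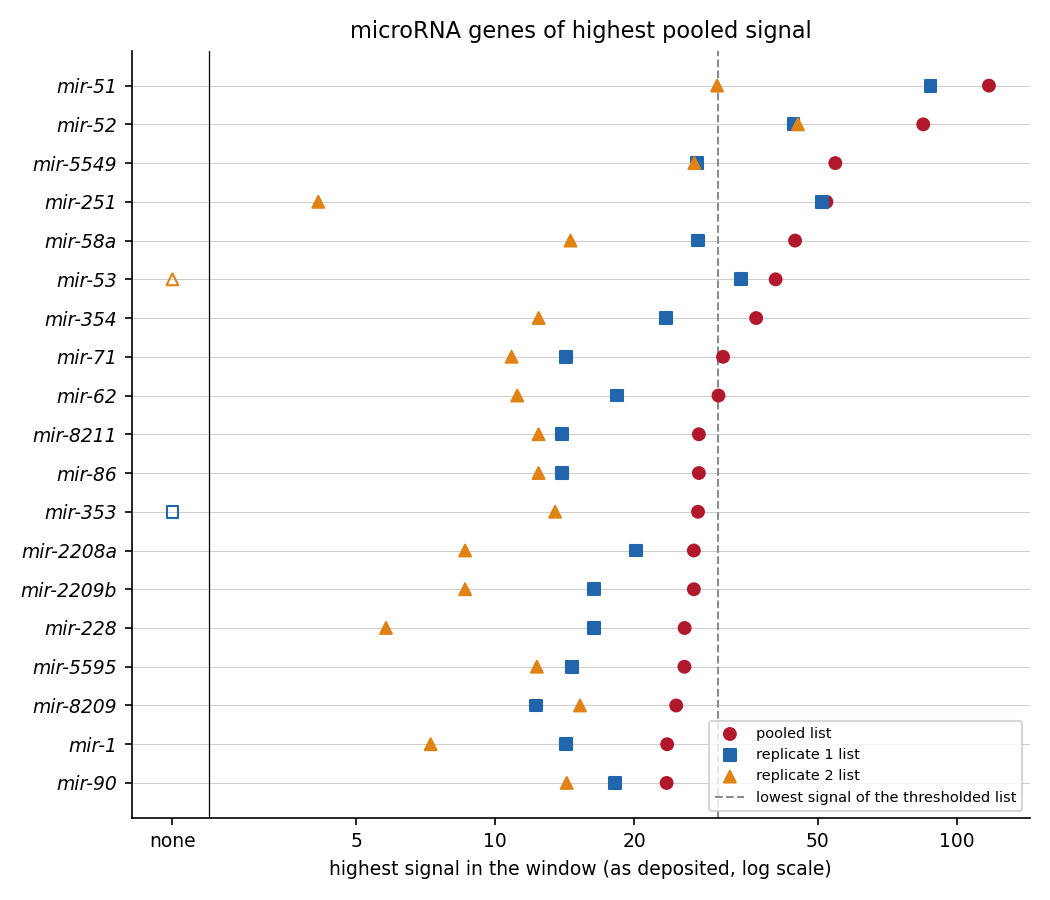
Highest signal in the window (log scale, as deposited) in the pooled, replicate 1 and replicate 2 lists for the 9 thresholded genes and the next 10. Open symbols at "none" mark a list with no region in the window, and the dashed line is the lowest thresholded signal, 30.4. The unscaled replicate signals coincide at mir-52 and mir-5549 and are far apart at mir-251.

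Taking the 9 together, 8 had a region in both replicate lists, of which 7 had the higher signal in replicate 1. By rank within equally long lists, 5 of the 8 stood higher in replicate 1 and 3 in replicate 2. Both replicates had a summit within 100 bp of the pooled summit at 5 of the 9. Taking instead the 689 highest regions of each replicate list, 7 microRNA genes held one in replicate 1, all of them thresholded, and 13 in replicate 2, of which 4 were thresholded. These are 2.68% and 4.98% of microRNA genes, against 2.73% and 2.63% of other genes. The 4 genes found in both of these top lists were mir-51, mir-52, mir-5549 and mir-58a. Of the 9 summits, 6 lay between protein-coding genes, 3 lay in introns and 0 in exons, with no share over all peaks to set beside them. Outside every protein-coding promoter window lay 6 of the 9, or 8 of the 11 distinct thresholded peaks in microRNA windows. This stands beside 312 of all 689 thresholded peaks, mitochondrial ones included. No tRNA, snoRNA, snRNA or rRNA gene lay within 200 bp of any of the 9 summits.

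Replicate support thinned out below the thresholded list. That list was kept by comparing ranks between replicates, so this follows in part from how it was made. Replicate 1 had a region in the windows of 119 microRNA genes and replicate 2 in 125, with 79 in both, and 92 genes had no region in any list. Other genes were not counted in the full replicate lists, so these counts say nothing particular about microRNA genes. At the 127 genes of the pooled list, a replicate 1 summit lay within 100 bp of the best pooled summit for 87 and a replicate 2 summit for 57. Both did so for 30, of which 5 were thresholded, and neither for 13. The replicate 2 list had its own strong sites. At mir-2, expressed in neurons and placed in an intron of ppfr-1, replicate 2 gave 21.9, rank 204, and replicate 1 had no region, with 16.7 in the pooled list. At mir-47 replicate 2 gave 16.6, with its summit 284 bp from the pooled one, and replicate 1 gave 12.1, against a pooled 13.6.

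The next 10 genes had pooled signals from 23.5 to 27.6, none of them thresholded. Those of mir-86 and mir-8211, which share a region in Y56A3A.7, were 14 in replicate 1 and 12.4 in replicate 2. The region of mir-353, an intronic gene of the ribosomal protein gene rpl-24.1, had 27.5, with 13.5 in replicate 2 and an overlapping replicate 1 region of 16.7 whose summit fell outside the window. It lay in the promoter windows of rpl-24.1 and rps-10. The genes mir-2208a and mir-2209b shared a region of 26.9 in which 50% of 32-base words recur in the genome, and whether reads from the other copies contributed was not tested. The glial microRNA mir-228 had 25.7, with 16.4 in replicate 1 and 5.80 in replicate 2. The muscle microRNA mir-1 had 23.6, with 14.3 in replicate 1 and 7.25 in replicate 2, the latter with its summit 147 bp from the pooled one. At mir-90, which shares the seed GAUAUGU with mir-62, the pooled value was 23.5, with 14.3 in replicate 2. At the same site replicate 1 gave 7.75, and its highest value in the window, 18.2, was at another site. The other 2 were mir-5595, in an intron of the chromatin remodelling gene nurf-1, with 25.7, and mir-8209 with 24.7.

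Families of related microRNAs were compared by counts, over 16 lists holding 68 genes. The list of tissue microRNAs among them is not a family. Of these 16 lists, 12 had no thresholded member, the tissue list included. All 8 members of the mir-35 family, needed in the embryo, had a pooled region, but over only 2 distinct regions. The first 7, mir-35 to mir-41, lie in a cluster of 797 bp and shared a region of 17.8. Replicate 1 gave 11.6 at a summit 87 bp from the pooled one, and replicate 2 gave 5.40 at a summit 312 bp away. The other member, mir-42, had 17.3 and shared its region with mir-43 and mir-44. The mir-58 family had 7 of 9 members in the pooled list and 1, mir-58a, above the threshold, and the next, mir-2209b, stood at 26.9. The mir-64 family had 5 of 5 in the pooled list, over 3 distinct best regions, at most at 17.6 for mir-229, which shared its region with mir-64. In that summit window 21.4% of 32-base words recur in the genome, and whether reads from the other copies contributed was not tested. In the smaller lists the highest members were mir-44 and mir-43 at the shared 17.3, mir-239b at 16.2, mir-47 at 13.6, mir-75 at 12.1 and mir-232 at 8.77. The list of mir-71 to mir-74 holds unlike seeds, and after mir-71 its next members, mir-73 and mir-74, shared a region of 17.3. Other lists also hold unlike seeds, since mir-2209b, mir-357 and mir-1821 have no seed that another microRNA gene shares.

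The families that time larval development had low values where they had any. Of the let-7 family, 2 of 8 members had a pooled region (interval 3.19 to 65.1%, which holds the 48.5% of other genes), at 9.17 for let-7 and 7.36 for mir-795. Another 3, mir-241, mir-793 and mir-794, had a region in the replicate 2 list alone, from 4.02 to 4.52. The let-7 gene is annotated over 1732 bp, and its region lay 872 bp past the 5′ end at rank 17334, with 3.54 in replicate 2 and none in replicate 1. Neither lin-4 nor mir-237, the other member of its family, had a region in any of the lists. Among microRNAs of single tissues, mir-124 of sensory neurons had 16.1, with 6.95 in replicate 1 and 13.3 in replicate 2. The muscle microRNA mir-1, given above, had 23.6, and the intestinal mir-60 had 9.67. No region in any list was found for lsy-6, which sets left-right differences of taste neurons, for mir-791 of neurons or for mir-359 of the pharynx. Low or absent signal in whole embryos cannot be told apart from binding in a few cells.

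**Figure D4:**
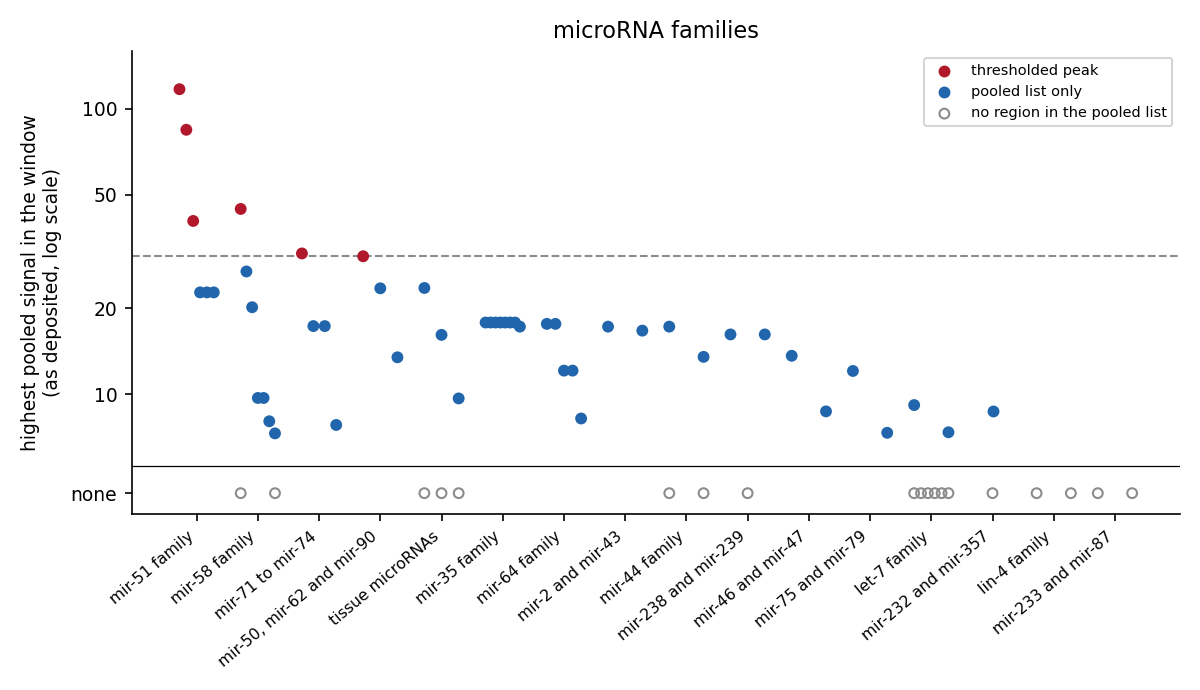
Highest pooled signal (log scale, as deposited) of each member of the 16 lists, ordered by their highest member. The list of tissue microRNAs is not a family. Red points have a thresholded peak, blue points a region of the pooled list only, and open circles no region. The mir-51 family reaches 117 and lies above the dashed line of 30.4 with 3 members, while the let-7 family does not exceed 9.17.

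The 127 best pooled summits lay on both sides of the precursor's 5′ end. There were 18 more than 750 bp upstream, 24 between 750 and 500 bp, 36 between 500 and 250 bp and 25 within 250 bp. Another 11 lay inside the precursor and 13 past its 3′ end. The thresholded summits were spread over 4 of these 6 classes, 2 of them inside the precursor. The median pooled signal was 12.1 more than 750 bp upstream, 10.7 between 750 and 500 bp and 15.7 between 500 and 250 bp. It was 16.1 within 250 bp upstream, 13.6 inside the precursor and 8.84 past the 3′ end. These bins were cut for description and carry no test.

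**Figure D5:**
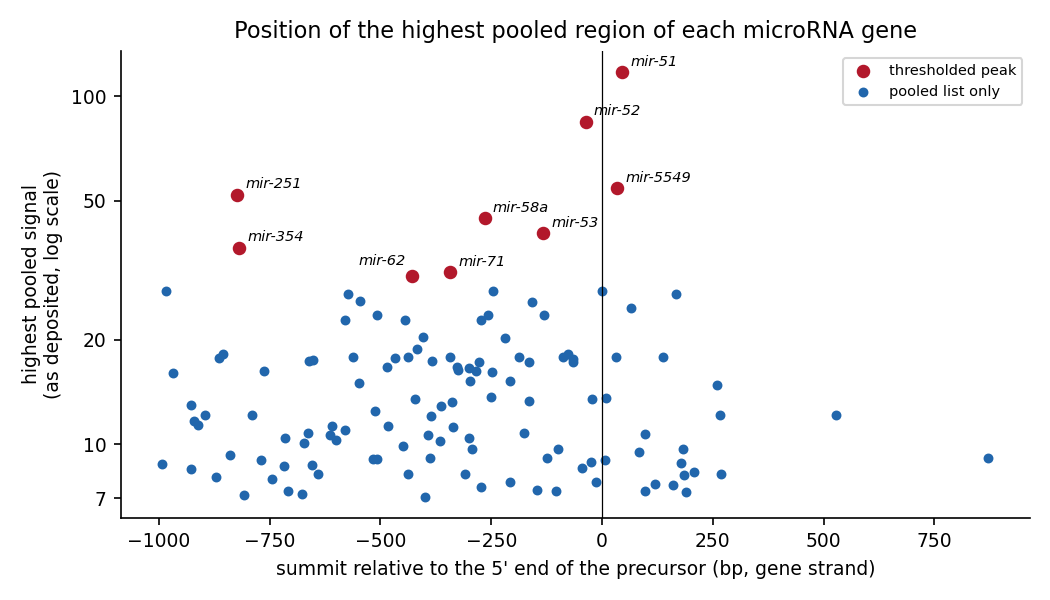
Pooled signal (log scale, as deposited) of the highest region of each of the 127 microRNA genes against the distance of its summit from the 5′ end of the precursor, in bp on the gene's strand. Thresholded genes are red and named, and the others are blue. The highest, mir-51 at 117, mir-52 at 84.6 and mir-5549 at 54.5, lie within 50 bp of the 5′ end.

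By chromosome, thresholded genes were found on I (2 of 33), III (1 of 27), IV (4 of 50) and X (2 of 74), and 0 of 49 on II and 0 of 28 on V. In windows of fixed size, which gave the microRNA genes the same counts, the protein-coding share was 3.37% on I, 1.91% on II, 3.6% on III, 2.29% on IV, 1.46% on V and 2.01% on X, so a count of 0 on II or V is not set apart from the background. The pooled list in these windows reached 70.4% of the microRNA genes of chromosome III (interval 49.8 to 86.2), against 46.4% of its protein-coding genes. On V it reached 17.9% (6.06 to 36.9), against 31.9% of its protein-coding genes. On II it reached 57.1% (42.2 to 71.2), against 38.1%, and on IV 52% (37.4 to 66.3), against 37.2%. On I the shares were 51.5% (33.5 to 69.2) against 46.2%, and on X 36.5% (25.6 to 48.5) against 38.3%. The protein-coding share thus lay below the interval of the microRNA genes on II, III and IV, and within it on I, V and X. These intervals treat genes as independent, although clustered genes on II, III and IV share regions. They are therefore too narrow where clusters share a region, and no test was made. Of 74 microRNA genes inside a protein-coding gene on its strand 4 were thresholded, of 32 on the opposite strand 0, and of 155 in no such gene 5. Genes with a seed shared by other microRNA genes, taking for each gene the arm whose seed most genes share, were thresholded in 6 of 109 cases (interval 2.05 to 11.6%), against 3 of 151 with a seed of their own (0.412 to 5.70%). The intervals overlap, and 3 of the 6 were the mir-51 family.

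The summit windows of the 9 genes had a median GC content of 48.5% (40.6 to 61.4), against 49.5% at all nuclear thresholded peaks and 39.1% at microRNA genes with a pooled region only. Words of 6 bases were counted on both strands of each summit window, after their counts at all peaks were known. GAGAGA stood in 4 of the 9 windows (mir-71, mir-5549, mir-53 and mir-62), in 22.2% of all nuclear thresholded windows and in 5.18% of genome windows of the same length. The word CGCGCA stood in 0 of the 9 and in 14.2% of all nuclear thresholded windows. For GCGCAC, which shares 5 bases with the first and so is not a separate count, the figures were 0 of the 9 and 14.3%. For CGAACC they were 0 of the 9 and 10.9%. In genome windows these words stood in 1.36%, 1.24% and 1.71%, in the same order. The absence of a word says only that these letters are not in the window.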

How the data were processed

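Peak lists on builds ce11 and ce10 were deposited, and only the ce11 lists were used. The signal values were computed by the authors and deposited with each region, as were the −log10 q-values, which were not used to choose regions. Per the notes deposited with the lists, technical libraries were merged and 1 control served both replicates. The thresholded list was kept by the irreproducible discovery rate (IDR), which compares ranks between replicates. Its threshold, the aligner and the caller are named by none of the sources used here. Depth is unknown.

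Windows, counts and exact Clopper-Pearson intervals (95%) were computed with Python 3.11 scripts, after the window code was tested on simulated data. No test was run, because all libraries form 1 group. The members and lists were chosen with earlier results of these data known. Named genes are every thresholded microRNA gene, the next 10, the 5 highest of each replicate list, let-7, lin-4 and the highest member of each family list. Some other family members are named after their values were seen. A protein-coding promoter was 1000 bp upstream to 200 bp downstream of a transcript's 5′ end. Sequences are from the RefSeq copy of WBcel235.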

Additional observations from a re-analysis of the deposited data

How the results depend on the processing

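Under 12 alternatives for window, overlap, threshold, replicate and peak class, the number of microRNA genes with a thresholded peak stayed within 1.5 times the reported 9 in 11. The exception was a stricter list of the 344 highest thresholded peaks, with 4 genes (1.53%) and 6 distinct peaks, against 11 distinct peaks in the full list. Taking the highest regions of 1 replicate in place of the thresholded list, the counts were 7 to 13 genes, 2.68 to 4.98% of genes (other genes 2.63 to 2.73%, with 2.73% beside the 2.68% and 2.63% beside the 4.98%), 9 to 13 peaks, and 4 to 5 genes with a summit within 200 bp. Of the mir-51 family, alternatives added after the data were seen gave 2 to 5 thresholded members, with 5 in the highest regions of replicate 2.

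The share of other genes moved outside its narrow interval in 9 of 12: 2.39% with 500 bp and 3.29% with 2000 bp upstream, 2.43% with 0 bp past the 3′ end, 2.16% with the fixed window, 2.97% with interval overlap, 1.49% in the stricter list, 1.07% outside coding promoters, 1.63% away from structural RNA genes, and 2.16% with at most 25% recurring words. In the last 3, microRNA genes stood at 2.30, 3.45 and 3.45%. Within 500 bp of the precursor 8 genes had a thresholded summit, against 4 within 200 bp. Taking only the 5000 highest regions of each list gave 56 genes in the pooled list and 23 in both replicates, and the 10000 highest gave 74 and 45. With 500 bp upstream, 51 genes were in both replicates. Other genes were not counted within 500 bp, in these shortened lists or in both replicates. These counts therefore say nothing particular about microRNA genes. No paired analysis was possible because there is 1 group and no test. Depth is unknown, so absence from a list may reflect its length of 30000.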
